A study of Mus musculus with 29 samples.

Results

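The adventitial fibroblast markers described here are 10 genes: Pdgfra, Pi16, Dpt, Clec3b, Cd248, Col14a1, Ly6a, Scara5, Dpp4 and Cd34. They were taken as a list of symbols and matched to the Ensembl identifiers of the gene table, and the list was drawn up with earlier results of these data known. They make up 10 of the 56748 genes in that table, and all 10 were among the 12353 genes that passed the filter on low counts. The lowest count of any marker in any sample used was 5, for Dpp4.

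The adventitia is the outer coat of an artery, and its fibroblasts make the collagen sheath that holds the vessel in place. These cells carry the receptor Pdgfra, and a subset around large vessels is known by Pi16, Dpp4, Ly6a and Cd34, a set of surface and secreted proteins that is often used to mark progenitor-like fibroblasts. The same cells secrete matrix proteins such as Dpt and Col14a1, and complement and cytokines such as C3 and Il33. Ly6a and Cd34 are also made by endothelium.

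RNA was sequenced from the aortic arch, with 1 library per mouse, in WT mice and in Ercc1Δ/− mice, which lack most activity of a DNA repair endonuclease subunit because they carry a truncated Δ allele beside a null allele. All mice were F1 hybrids of C57BL6J and FVB, the WT mice were littermates, and all ate AIN93G pellets. The groups were WT and Ercc1Δ/− mice fed ad libitum (AL) at 6 weeks, with 5 samples each, the same genotypes fed AL at 22 weeks, with 4 samples each, and on dietary restriction (DR) at 22 weeks, with 5 samples each. DR began at 7 weeks with 10% less food and was raised in steps of 10% to 30% from 9 weeks. Each group held 3 males and 2 females, except the AL groups at 22 weeks. Those held 3 males and 1 female in WT and 2 males and 2 females in Ercc1Δ/− mice. The tests had a term for sex, but the levels given for single mice are not adjusted for it. Both Ercc1 alleles are present in every cell of the mouse, not in fibroblasts alone, and arches were perfused with buffer and taken whole. In RNA of a whole tissue, fewer cells of a type and less RNA per cell cannot be told apart.

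Counts on genes ran from 921167 to 9616382 over the 28 samples (median 3256708), and every 22-week AL library of Ercc1Δ/− mice (1294980 to 3855444) was shallower than every such library of WT mice (3903589 to 9616382). On DR too, every Ercc1Δ/− library (921167 to 2572523) was shallower than every WT library (2660422 to 6124471). A further WT sample, mouse 003 (400410 counts), was left out by the study and is left out here unless named. Ercc1 itself, in counts scaled to a common library total (CPM), was at 7.62 to 21.2 CPM in Ercc1Δ/− mice and at 22.3 to 36.8 CPM in all WT mice except mouse 011 of the 6-week group. That library, at 955589 counts, had 13 Ercc1 counts or 14.1 CPM, and the exact Poisson interval of this count (95%, counting error only) ran from 7.51 to 24.1 CPM, so it covers levels of both genotypes. Intervals of other libraries did so too, such as those of WT mouse 019 (15.0 to 32.1 CPM) and Ercc1Δ/− mouse 014 (13.0 to 32.8 CPM). Among the WT mice used, only mouse 011 was itself at a level of the Ercc1Δ/− mice. Smooth muscle markers, summed over Myh11, Acta2, Tagln, Cnn1, Smtn and Lmod1, were at 16576 to 42474 CPM in every sample, while the B and T cell genes Cd3e, Cd3d, Cd79a and Ms4a1 had no more than 10 counts in any sample.

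RefSeq promoter entries (build GRCm38.p6) matched 5 of the 10 markers, Pdgfra, Pi16, Dpt, Dpp4 and Cd34. The 250 bases before the start site are shown for Pi16 (chr17:29318632-29318881, plus strand) and Cd34 (chr1:194938571-194938820, plus strand), because these genes moved in opposite directions between the genotypes in the results that follow. Capitals mark CCAAT, the motif searched for on both strands together with TATAAA and GGGCGG. The run from Pi16 holds CCAAT starting 64 bases before the start site, and the run from Cd34 holds none of the 3 motifs. Among all 32851 entries, 33.8% hold CCAAT, 12.4% hold TATAAA and 32.7% hold GGGCGG in these 250 bases, and of the other matched markers only Dpp4 holds any, a TATAAA starting 227 bases before its start site. A match is a description of the letters and says nothing of binding.
Pi16: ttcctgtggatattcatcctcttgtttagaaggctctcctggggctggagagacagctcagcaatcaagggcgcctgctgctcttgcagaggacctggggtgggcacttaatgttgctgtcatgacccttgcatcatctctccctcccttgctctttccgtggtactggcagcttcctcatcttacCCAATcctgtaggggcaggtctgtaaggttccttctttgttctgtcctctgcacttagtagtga
Cd34: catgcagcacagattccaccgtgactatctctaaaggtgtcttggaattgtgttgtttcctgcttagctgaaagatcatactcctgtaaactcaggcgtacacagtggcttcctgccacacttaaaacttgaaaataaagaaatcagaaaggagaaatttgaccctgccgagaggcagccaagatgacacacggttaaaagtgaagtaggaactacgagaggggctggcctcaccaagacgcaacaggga

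Per kilobase of exon, the markers fell into an order from Clec3b, at a mean of 114 CPM per kb over 28 samples, through Pi16 (102 CPM per kb), Dpt (87.9), Col14a1 (74.2), Scara5 (35.7), Cd248 (28.6), Cd34 (21.6), Ly6a (21.3) and Pdgfra (9.14) to Dpp4 (1.57). Each neighbouring pair in this order overlapped in range over the samples except Pdgfra and Dpp4, whose ranges were 6.74 to 13.1 and 0.362 to 3.52 CPM per kb. Reads were counted over whole gene bodies, so the division by exon length is approximate. From sample to sample the CPM level of Scara5, the ferritin receptor, varied least, with a coefficient of variation of 16.0%, and that of Dpp4, a surface peptidase, most, with 65.7%. Ly6a, a surface protein also known as Sca-1, spanned a 4.63-fold range and Pi16, peptidase inhibitor 16, a 4.05-fold range.

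**Figure D1:**
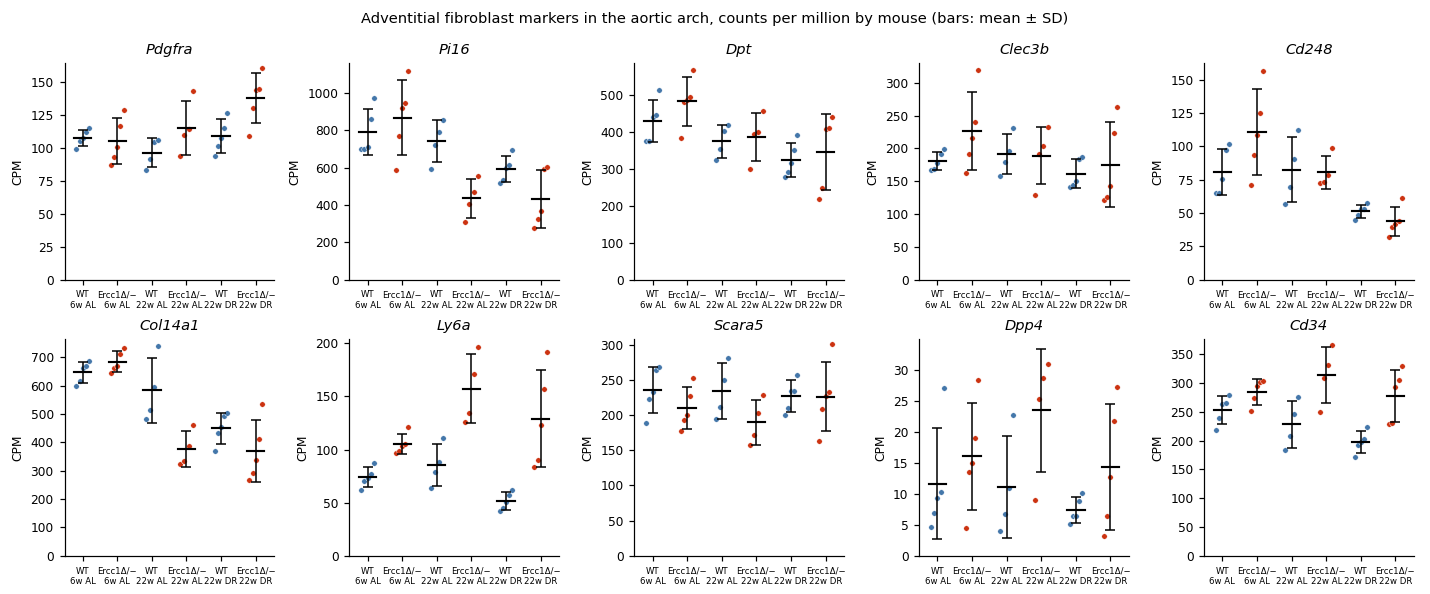
CPM of the 10 markers (vertical axes, from 0) in each mouse (points) of the 6 groups on the horizontal axes, blue for WT and red for Ercc1Δ/−, with mean and SD. Ly6a of Ercc1Δ/− mice lies above that of WT mice at each age and diet. Pi16 and Col14a1 of Ercc1Δ/− mice lie below those of WT mice at 22 weeks on AL, while on DR both overlap between the genotypes.

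The comparison of AL-fed mice at 22 weeks asked how the genotype changed the aged arch. The markers did not move together. Ly6a and Cd34 were higher in Ercc1Δ/− mice and Pi16 and Col14a1 were lower, so that 4 of 10 markers were DEGs, in opposite directions, against 12.0% of all tested genes (edgeR quasi-likelihood test, with a Benjamini-Hochberg adjusted p up to 0.05 required together with a change of 1.2-fold or more). The median log2 fold change of the 10 was 0.00, beside 0.029 for all genes.

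Ly6a was at 64.3, 79.1, 87.9 and 111 CPM in the WT mice and at 126, 135, 171 and 196 CPM in the Ercc1Δ/− mice. The groups did not overlap, and the log2 fold change was 0.83 ± 0.14 (SE, adjusted p = 0.000384, edgeR). Cd34, a sialomucin of progenitors, fibroblasts and endothelium, was at 184, 207, 246 and 276 CPM in WT mice and at 249.9, 308, 332 and 366 CPM in Ercc1Δ/− mice, where only the highest WT and the lowest Ercc1Δ/− value crossed. Its log2 fold change was 0.45 ± 0.13 (SE, adjusted p = 0.0220, edgeR). This call was lost with mouse 003 added (adjusted p = 0.0758), in a fit of only the compared groups (0.0725), at equal depth (0.0537), and without mouse 005 (0.0856), 012 (0.0735), 013 (0.0667) or 025 (0.0685), all by edgeR.

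Col14a1, a collagen that sits on the surface of fibrils, was at 483, 514, 597 and 739.8 CPM in WT mice and at 323, 335, 389 and 459 CPM in Ercc1Δ/− mice. All WT mice were higher, and the log2 fold change was -0.65 ± 0.12 (SE, adjusted p = 0.00100, edgeR). Pi16 was at 592, 723, 793 and 854 CPM in WT mice and at 310.3, 407, 472 and 556 CPM in Ercc1Δ/− mice. These groups did not overlap either, and the log2 fold change was -0.74 ± 0.20 (SE, adjusted p = 0.0200, edgeR). Without mouse 013, 018 or 026 the Pi16 change was -0.68, -0.73 or -0.56 and the adjusted p 0.0627, 0.0680 or 0.0675. The calls of Ly6a and Col14a1 held with each sample left out and under each of the 9 alternative fits.

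The other 6 markers were not called. Dpp4 was at 9.04 to 30.9 CPM in Ercc1Δ/− mice and 3.93 to 22.6 CPM in WT mice. Its log2 fold change was 1.05 ± 0.58 (SE, adjusted p = 0.276, edgeR), so its difference was not resolved against the spread between mice. Scara5 had a log2 fold change of -0.29 ± 0.15 (SE, adjusted p = 0.225, edgeR) and Pdgfra, the PDGF receptor that marks fibroblasts in general, one of 0.25 ± 0.13 (SE, adjusted p = 0.242, edgeR). The matrix proteins Dpt, known as dermatopontin, and Clec3b, known as tetranectin, and the surface glycoprotein Cd248, known as endosialin, had means of 388 ± 64.8, 189 ± 43.7 and 80.7 ± 12.4 CPM (SD, n = 4) in Ercc1Δ/− mice against 375 ± 43.7, 191 ± 30.6 and 82.5 ± 24.2 CPM (SD, n = 4) in WT mice.

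Markers of other cells also differed in this comparison. Macrophage genes were higher for 5 of 6 tested (summed level 431 ± 114 CPM in Ercc1Δ/− against 174 ± 32.4 CPM in WT mice, SD, n = 4 each, with no overlap), Cd68 with a log2 fold change of 2.09 and Adgre1 with 1.26. Of 6 smooth muscle genes 5 were lower, among them Cnn1 (-0.77) and Smtn (-0.93), with summed levels of 16576 to 25698 against 31496 to 37800 CPM. Of the 8 endothelial genes only Emcn was called (0.97), and the summed endothelial level of 605 to 1091 CPM in Ercc1Δ/− mice overlapped the 797 to 1169 CPM of WT mice. The part of these cells in the marker changes was not tested.

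On DR, the genotypes were compared in 5 mice each. Again 4 of 10 markers were DEGs, beside 13.0% of all genes, with Ly6a, Cd34 and Pdgfra higher and Pi16 lower in Ercc1Δ/− mice. Ly6a had the largest change among the markers in any comparison here. It was at 42.4, 44.7, 51.0, 57.3 and 62.0 CPM in WT mice and at 83.3, 90.0, 123, 157 and 192 CPM in Ercc1Δ/− mice, with no overlap and a log2 fold change of 1.29 ± 0.12 (SE, adjusted p = 8.77e-08, edgeR). Cd34 was at 171, 192, 197, 202 and 223 CPM in WT mice and at 229, 229.9, 293, 305 and 329.8 CPM in Ercc1Δ/− mice. Its groups did not overlap here, and the log2 fold change was 0.49 ± 0.11 (SE, adjusted p = 0.00276, edgeR). Both calls held under all 9 alternative fits and with each mouse left out. On DR, 5 of 8 endothelial genes were also higher in Ercc1Δ/− mice, Cldn5 with a log2 fold change of 1.04, Egfl7 with 0.72, Cdh5 with 0.65 and Pecam1 with 0.69, and their summed level was 876 to 1450 CPM against 425 to 894 CPM in WT mice, ranges that just crossed. All 6 smooth muscle genes were lower on DR in Ercc1Δ/− mice, and 3 of 6 macrophage genes were higher, among them C1qa with a log2 fold change of 0.77 and Cd68 with 1.13. The part of these cells in the marker differences on DR was not tested.

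Pi16 on DR was at 519, 535, 599.8, 612 and 692 CPM in WT mice and at 276, 324, 369.7, 591 and 603 CPM in Ercc1Δ/− mice. In the Ercc1Δ/− group 3 mice were below all WT mice and 2 were within their range, and the log2 fold change was -0.50 ± 0.15 (SE, adjusted p = 0.0312, edgeR). Pdgfra was at 93.6, 102, 108, 115 and 127 CPM in WT mice and at 109.5, 131, 144, 145 and 161 CPM in Ercc1Δ/− mice, and its log2 fold change was 0.34 ± 0.11 (SE, adjusted p = 0.0463, edgeR). Both calls were fragile. Pi16 lost its call without mouse 006 (adjusted p = 0.0689), 007 (0.0621), 010 (0.0746), 016 (0.0846), 017 (0.0515), 028 (0.0583) or 029 (0.0769) and under 4 of 9 alternative fits, and Pdgfra without mouse 006 (0.147), 007 (0.0776), 010 (0.119), 016 (0.103), 017 (0.108), 022 (0.0843) or 028 (0.0590) and under 5 of 9. Col14a1 was at 267 to 536 CPM in Ercc1Δ/− mice, with mouse 022 the highest, and at 368 to 503 CPM in WT mice. It had a log2 fold change of -0.31 ± 0.11 (SE) and was not called (adjusted p = 0.0759, edgeR), but was called without mouse 022 (-0.42, adjusted p = 0.00988). Dpp4, at 3.18 to 27.3 CPM in Ercc1Δ/− and 5.09 to 10.2 CPM in WT mice, had a log2 fold change of 0.99 ± 0.55 (SE, adjusted p = 0.277, edgeR).

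**Figure D2:**
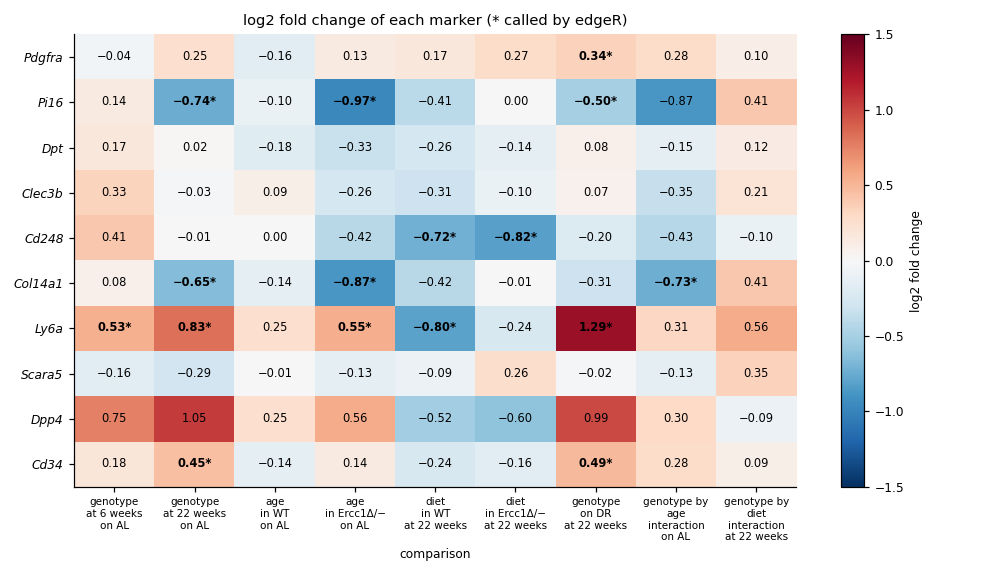
Log2 fold change of the 10 markers (rows) in the 9 comparisons (columns), coloured from blue (lower) to red (higher), with an asterisk on the 16 values called by edgeR. Ly6a is called in 5 columns, Pi16 in 3, and Dpt, Clec3b, Scara5 and Dpp4 in none.

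Because Ly6a moved up and Pi16 and Col14a1 down, their ratio within each mouse was taken as a description, chosen after these values were seen and without a test. The log2 ratio of Ly6a to Pi16 in CPM was -3.13 ± 0.29 (SD, n = 4) in AL-fed WT mice at 22 weeks and -1.46 ± 0.12 (SD, n = 4) in AL-fed Ercc1Δ/− mice, with ranges of -3.33 to -2.71 and -1.60 to -1.30. On DR it was -3.53 ± 0.15 (SD, n = 5) in WT and -1.74 ± 0.13 (SD, n = 5) in Ercc1Δ/− mice. At 6 weeks the genotypes overlapped, at -3.41 ± 0.27 in WT and -3.02 ± 0.29 in Ercc1Δ/− mice (SD, n = 5 each). The 5 Ercc1Δ/− mice on DR thus differed widely in the level of either gene while the ratio stayed between -1.91 and -1.58. Both genes were higher in the females than in the males of that group, as given below. The ratio of Ly6a to Col14a1 behaved like that of Ly6a to Pi16, at -2.78 ± 0.16 and -1.27 ± 0.24 on AL (SD, n = 4 each) and at -3.13 ± 0.17 and -1.54 ± 0.16 on DR (SD, n = 5 each), for WT and Ercc1Δ/− mice in that order. The ratio of Cd34 to Pi16, also taken, was on DR at -1.58 ± 0.08 in WT and -0.58 ± 0.34 in Ercc1Δ/− mice (SD, n = 5 each). In those Ercc1Δ/− mice it spread more widely, from -1.01 to -0.26.

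**Figure D3:**
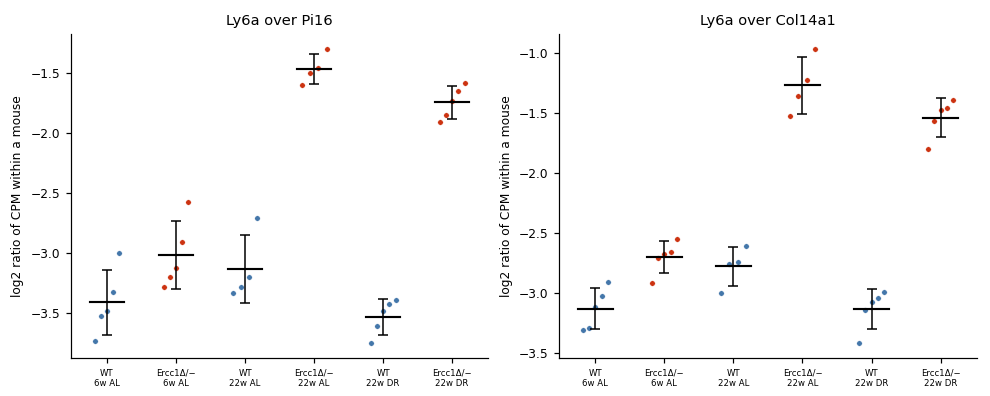
Log2 ratio of Ly6a to Pi16 (left) and of Ly6a to Col14a1 (right) within each mouse (points; vertical axes, log2 of the CPM ratio) in the 6 groups, with mean and SD. The Ercc1Δ/− mice at 22 weeks, on AL and on DR, lie above all other groups in both panels, from -1.91 upwards for Ly6a over Pi16.

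At 6 weeks, 1 of 10 markers was called between the genotypes, beside 1.72% of all genes, and the median log2 fold change of the markers was 0.18 (0.013 for all genes). This was Ly6a, at 62.0, 70.1, 73.3, 77.0 and 87.8 CPM in WT mice and at 97.1, 98.8, 103, 106 and 122 CPM in Ercc1Δ/− mice. The groups did not overlap, and the log2 fold change was 0.53 ± 0.13 (SE, adjusted p = 0.0364, edgeR). The call was close to the threshold. It was lost with mouse 003 added (adjusted p = 0.0901) and without mouse 001 (0.0559), 002 (0.0800), 009 (0.0741), 011 (0.0525), 015 (0.0558), 019 (0.0505), 024 (0.111) or 027 (0.107), with log2 fold changes of 0.42 to 0.56 in these fits. Without mouse 011, whose Ercc1 level did not settle its label, the log2 fold change was 0.56. Clec3b and Cd248 had log2 fold changes of 0.33 ± 0.17 and 0.41 ± 0.21 (SE) and were not called (adjusted p = 0.432 and 0.428, edgeR). The highest Ly6a value of the 6-week WT mice was that of mouse 011. Cd68, the macrophage gene, was also higher in 6-week Ercc1Δ/− mice (log2 fold change 1.24), and Acta2 (-0.50) and Cnn1 (-0.42) of smooth muscle were lower.

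The comparison of 22 with 6 weeks on AL asked what time did to the markers in each genotype. In WT mice 0 of 10 were called by edgeR, beside 0.219% of all genes, and 0 by DESeq2. Also 0 had an unadjusted p under 0.05 by edgeR, a limit at which the share of all genes was not counted. The median log2 fold change was -0.05, and Ly6a had the highest among the markers with Dpp4, at 0.25 ± 0.13 (SE, adjusted p = 0.656, edgeR). Pi16 was at 789 ± 123 CPM at 6 weeks (SD, n = 5) and 740.4 ± 113 CPM at 22 weeks (SD, n = 4), and Col14a1 at 646 ± 37.4 and 583 ± 115 CPM, so that any drift was within the spread between mice.

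In Ercc1Δ/− mice 3 of 10 markers were called with age, beside 4.65% of all genes, and the median log2 fold change was -0.20 (0.016 for all genes). Col14a1 fell from 646, 661, 668, 712 and 734 CPM at 6 weeks to the 323 to 459 CPM given above, with no overlap and a log2 fold change of -0.87 ± 0.12 (SE, adjusted p = 4.33e-05, edgeR). Pi16 fell from 587, 772, 921, 944 and 1117 CPM to 310.3 to 556 CPM, with a log2 fold change of -0.97 ± 0.19 (SE, adjusted p = 0.00468, edgeR), again with no overlap. Both calls held under all 9 alternative fits and with each mouse left out. Ly6a rose from 97.1 to 122 CPM at 6 weeks to 126 to 196 CPM at 22 weeks, with a log2 fold change of 0.55 ± 0.13 (SE, adjusted p = 0.0162, edgeR). It lost its call with mouse 003 added (adjusted p = 0.0623), at equal depth (0.0772) and without mouse 004 (0.0515), 005 (0.0855) or 008 (0.0735). Dpt had a log2 fold change of -0.33 ± 0.12 (SE, adjusted p = 0.144, edgeR) and was called only without mouse 008 (-0.44, adjusted p = 0.0405). In the same comparison with age 3 of 6 macrophage genes were called higher, Cd68 (log2 fold change 1.30), Adgre1 (0.94) and C1qb (1.03), with all 6 positive. All 6 smooth muscle genes were negative, and Cnn1 was called (-0.46). The part of these cells in the marker changes with age was not tested.

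Whether the genotypes differed in their change with age was tested by the interaction term, for which no fold limit was set. Col14a1 was called, 1 of 10 markers beside 0.785% of all genes, with an interaction of -0.73 ± 0.16 on the log2 scale (SE, adjusted p = 0.0267, edgeR). Its call was lost without mouse 004 (-0.67, adjusted p = 0.0809), 009 (-0.71, 0.0585), 018 (-0.58, 0.160), 020 (-0.71, 0.0614) or 026 (-0.67, 0.0773). Pi16 had a larger interaction, -0.87 ± 0.26 (SE), but was not called by edgeR (adjusted p = 0.161), and was called by DESeq2 (-0.89, adjusted p = 0.0415). For Ly6a the interaction was 0.31 ± 0.19 (SE, adjusted p = 0.591, edgeR), so its change with age was not shown to differ between the genotypes. Of the matrix genes outside the 10, Col1a2 was called in the same test (-0.87, adjusted p = 0.0187, edgeR).

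The comparison of DR with AL at 22 weeks asked what the diet did within each genotype. Cd248, a glycoprotein of fibroblasts and pericytes, fell on DR in both. In WT mice it was at 57.1, 69.8, 90.9 and 112 CPM on AL and at 44.7, 48.2, 52.7, 52.9 and 57.6 CPM on DR, where the highest DR value just crossed the lowest AL value. In Ercc1Δ/− mice it was at 72.3, 73.1, 78.8 and 98.7 CPM on AL and at 32.4, 39.3, 41.7, 44.0 and 61.1 CPM on DR, without overlap. The log2 fold changes were -0.72 ± 0.15 (SE, adjusted p = 0.0186, edgeR) in WT and -0.82 ± 0.17 (SE, adjusted p = 0.0158, edgeR) in Ercc1Δ/− mice. The WT call was lost without mouse 017 (adjusted p = 0.0607), 018 (0.147), 020 (0.0742) or 028 (0.0688), without the sex term (0.0706) and with all 6 groups in the fit (0.134), and the Ercc1Δ/− call was lost without mouse 026 (0.0620) and with all 6 groups in the fit (0.0556).

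In WT mice 2 of 10 markers were called, beside 1.30% of all genes, and the median log2 fold change of the markers was -0.36 (0.014 for all genes). Beside Cd248 the other was Ly6a, which fell from 64.3 to 111 CPM on AL to 42.4 to 62.0 CPM on DR, without overlap. Its log2 fold change was -0.80 ± 0.12 (SE, adjusted p = 0.000779, edgeR), and the call held with each mouse left out but was lost without the sex term (-0.73, adjusted p = 0.212). The WT group on AL held 3 males and 1 female, and that on DR 3 males and 2 females. Endothelial genes, whose cells also make Ly6a, were negative for 7 of 8 in the same comparison. Their median log2 fold change was -0.45, and 0 were called by edgeR. Their summed level was 797 to 1169 CPM on AL and 425 to 894 CPM on DR. Of 6 macrophage genes all were negative and C1qb was called (-0.65). The part of these cells in the Ly6a change was not tested. Col14a1 (-0.42 ± 0.12), Pi16 (-0.41 ± 0.15) and Clec3b (-0.31 ± 0.12, SE) had negative changes with adjusted p-values of 0.0845, 0.241 and 0.239 by edgeR. Col14a1 was called without the filter on low counts (-0.44, adjusted p = 0.0483) and in a fit of only the compared groups (-0.42, adjusted p = 0.0315).

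In Ercc1Δ/− mice Cd248 was the only 1 of 10 called, beside 1.78% of all genes, and the median log2 fold change was -0.12 (-0.007 for all genes). Pi16 was at 437 ± 104 CPM on AL (SD, n = 4) and 433 ± 154 CPM on DR (SD, n = 5), and Col14a1 at 376 ± 62.3 and 369 ± 108 CPM, so that neither moved from its low level by more than the spread between mice. Ly6a had a log2 fold change of -0.24 ± 0.12 (SE, adjusted p = 0.349, edgeR) and Pdgfra one of 0.27 ± 0.12 (SE, adjusted p = 0.290, edgeR). In the same comparison 4 of 6 macrophage genes were lower on DR, C1qa by 1.00 and Cd68 by 1.23 on the log2 scale, with a summed level of 192 to 371 CPM on DR. The genotype by diet interaction called 0 of 10 markers by edgeR, beside 0.105% of all genes, and 0 by DESeq2. The 2 markers with the lowest p were Ly6a (0.56 ± 0.17, SE, adjusted p = 0.284, edgeR) and Col14a1 (0.41 ± 0.17, SE, adjusted p = 0.490, edgeR). A difference between the genotypes in the response of these markers to DR was thus not shown. In the same interaction 7 of 8 endothelial genes were positive, with a median of 0.94 and 0 called by edgeR. Their part in the Ly6a value was not tested.

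Although the markers moved in different directions between genotypes, they rose and fell together from mouse to mouse within a group. After each marker's log2 level was centred within its group (28 samples, pseudocount 0.5 CPM), 40 of the 45 pairs of markers had a positive correlation, with a median Pearson r of 0.39 and a range of -0.14 to 0.86. Against the mean of the other 9 markers, r was 0.88 for Ly6a, 0.86 for Clec3b, 0.82 for Pi16 and Cd34, 0.81 for Col14a1 and 0.79 for Dpt, whereas it was 0.46 for Scara5, 0.28 for Dpp4, 0.25 for Pdgfra and 0.20 for Cd248. So a set of 6 markers varied together and the other 4 did so less, where Dpp4 is also the gene with the fewest counts. When the levels were centred within group and sex, the median r was 0.31 with 37 positive pairs and a range of -0.40 to 0.81, and r against the other markers was 0.79 for Cd34, 0.73 for Pi16 and Ly6a, 0.71 for Dpt, 0.64 for Clec3b and 0.56 for Col14a1, but 0.34 for Pdgfra, 0.30 for Scara5, 0.11 for Dpp4 and -0.17 for Cd248. The points share the library and its scaling, and these values are a description.

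**Figure D4:**
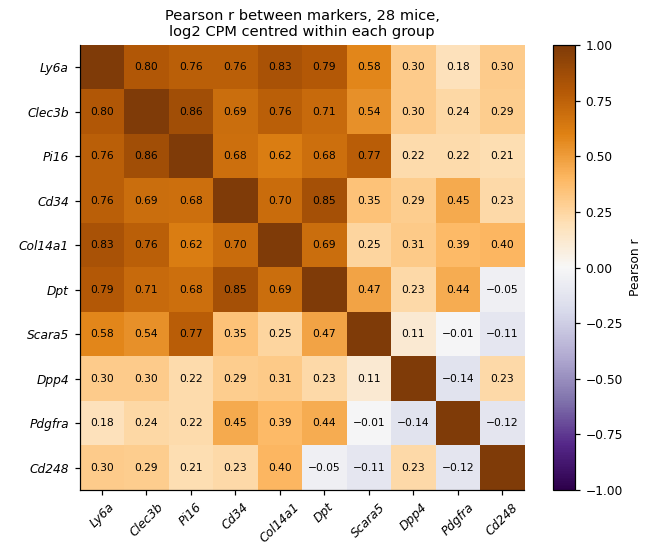
Pearson r between the 10 markers over 28 mice (both axes list the markers), from log2 CPM centred within each group, coloured from purple (negative) to orange (positive). Ly6a, Clec3b, Pi16, Cd34, Col14a1 and Dpt form a block of positive values, the highest 0.86, and Cd248 and Pdgfra lie outside it.

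The 8 other tested genes whose within-group pattern was most like the mean of the markers were Mmp2 (r = 0.84), Serpinf1 (0.82), Nid1 (0.79), Cpxm1 (0.79), Anpep (0.78), Cd55 (0.78), C1ra (0.77) and Lum (0.74), all over 28 samples. Mmp2 is a matrix protease, Nid1 a basement membrane protein, Lum a proteoglycan of collagen fibrils and C1ra a complement protease. Of all tested genes outside the markers, 232 had an r above 0.5, and the median over all tested genes was -0.01. The mean of 10 other fibroblast markers followed the 10 described here with r = 0.88, that of 5 cytokine and complement genes with 0.76, fibroblast transcription factors with 0.56, macrophage genes with 0.45, endothelial genes with 0.34 and smooth muscle genes with -0.31. Both other fibroblast lists did not follow, with r = 0.00 for activated fibroblasts and -0.22 for the Col15a1-type. The r values of these genes and lists come from levels centred within group only, so differences between the sexes remain in them.

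Other fibroblast genes were read from lists for comparison. Among Dcn, Lum, Col1a1, Col1a2, Fbln1, Serpinf1, Mfap5, Pcolce2, Gsn and Fbln2, 3 of 10 were lower and 0 higher by edgeR in AL-fed Ercc1Δ/− mice at 22 weeks, namely Serpinf1 (log2 fold change -0.59), Col1a2 (-0.66) and Col1a1 (-0.65), beside 12.0% of all genes. The list was split, with 5 positive and 5 negative changes and a median of -0.04. Among the positive ones, chosen after their values were seen, Lum was at 0.43, Dcn at 0.33 and Fbln1 at 0.34, which were not called (the lowest adjusted p was 0.0659, for Lum, edgeR). With age in Ercc1Δ/− mice 5 of these 10 fell, beside 4.65% of all genes, with Col1a1 at -1.84, Col1a2 at -1.52 and Mfap5, a microfibril protein, at -1.19. In WT mice Col1a2 fell with age (-0.65), and Col1a1 and Col1a2 fell on DR (-0.70 and -0.40). On DR the same 3 genes were lower in Ercc1Δ/− than in WT mice. At 22 weeks on AL and with age in Ercc1Δ/− mice, the fibril collagen genes and Col14a1 were called in the same direction, while Dcn, Lum, Fbln1, Gsn and Fbln2 were called in no comparison.

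Genes of cytokines and complement that adventitial fibroblasts are known to secrete moved the other way. In AL-fed Ercc1Δ/− mice at 22 weeks 4 of 5 tested were higher, beside 12.0% of all genes called, among them Il33 (log2 fold change 0.85), an alarmin, C3 (0.93), the central complement protein, and Cxcl16 (0.65), a chemokine. On DR 3 of 5 were higher, beside 13.0% of all genes called, among them Il33 (0.94) and C3 (0.74). The other 7 genes of that list, among them Il6 and Ccl2, did not pass the filter on low counts, and Il6 was at 0 in 24 of 28 samples. The summed level of the list was 2597 to 3710 CPM in AL-fed Ercc1Δ/− mice at 22 weeks against 1530 to 1990 CPM in WT mice, and genes of macrophages, which also make several of these proteins, were higher in the same mice as given above, a part that was not tested.

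**Figure D5:**
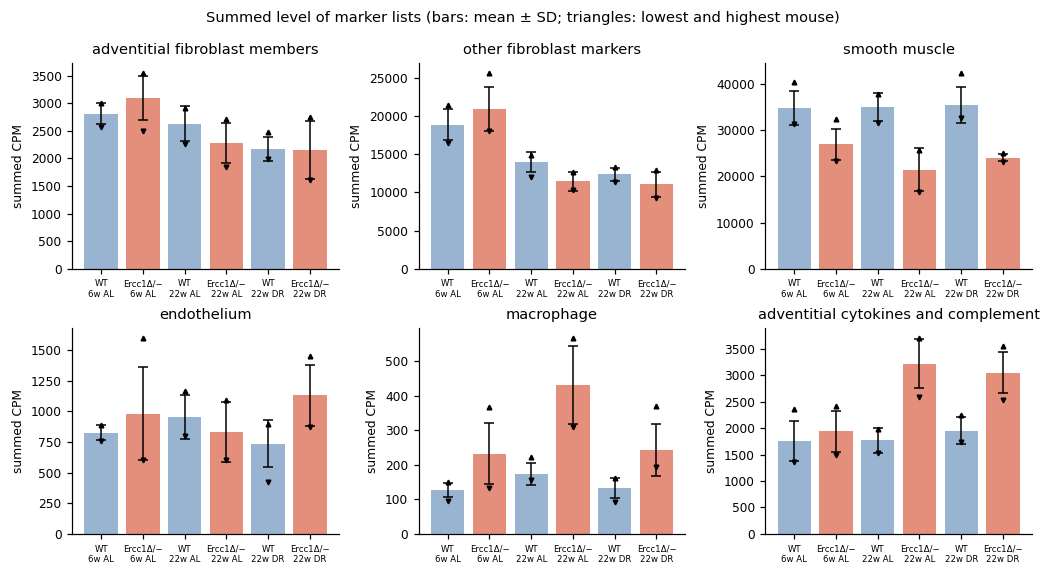
Summed CPM (vertical axes, from 0) of 6 marker lists in the 6 groups, as mean and SD with triangles at the lowest and highest mouse, blue for WT and red for Ercc1Δ/−. The cytokine and complement and macrophage sums are high and the smooth muscle sum is low in Ercc1Δ/− mice at 22 weeks, whereas the sum of the 10 markers overlaps between the genotypes.

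Among 7 genes of a further fibroblast type named for Col15a1, 4 were lower and 2 higher in AL-fed Ercc1Δ/− mice at 22 weeks, with Col15a1 at -0.90 and Sparcl1 at -0.84 on the log2 scale, and Lpl at 1.97 and Cxcl12 at 0.48. Of all genes, 12.0% were called in this comparison, 1.72% between genotypes at 6 weeks and 13.0% between genotypes on DR. For DR against AL, 1.30% were called in WT and 1.78% in Ercc1Δ/− mice. Sparcl1 rose on DR in WT (0.44) and in Ercc1Δ/− mice (0.34), and Cxcl12 fell on DR in Ercc1Δ/− mice (-0.45). Of 8 tested genes of activated fibroblasts, Postn, or periostin, was lower in Ercc1Δ/− mice at 6 weeks (-0.40), at 22 weeks on AL (-0.38) and on DR (-0.69), and no gene of that list was called higher in any comparison. Adam12 of that list, a metalloprotease gene named after its value was seen, had a log2 fold change of 1.99 ± 0.67 (SE) between genotypes at 22 weeks on AL and was not called (adjusted p = 0.0668, edgeR). Of 10 transcription factors of fibroblasts, Osr1 was lower at 22 weeks in Ercc1Δ/− mice on AL (-0.51) and on DR (-0.53), and Runx1 was higher on AL (0.98). Of the PDGF ligands that bind Pdgfra or its sister receptor, Pdgfc was higher (0.58) and Pdgfd lower (-0.66) in AL-fed Ercc1Δ/− mice at 22 weeks, and on DR Pdgfrb (-0.32), Pdgfd (-0.39) and Pdgfa (-0.51) were lower.

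At 22 weeks 3 of the markers, Ly6a, Clec3b and Col14a1, were higher in females than in males, with group taken into account. This was seen in the values first and then read from the sex term of the fit over the 18 mice of 22 weeks, so its p-values are no independent test. Ly6a in females against males was at 111 against 64.3 to 87.9 CPM in WT mice on AL (1 female, 3 males), at 57.3 and 62.0 against 42.4 to 51.0 CPM in WT mice on DR, at 171 and 196 against 126 and 135 CPM in Ercc1Δ/− mice on AL, and at 157 and 192 against 83.3 to 123 CPM in Ercc1Δ/− mice on DR. In Ercc1Δ/− mice on DR, Pi16 was at 591 and 603 CPM in the females and at 276 to 369.7 CPM in the males, while in WT mice on DR it was at 612 and 692 CPM in the females and at 519 to 599.8 CPM in the males. Within each sex the Pi16 values of the genotypes thus did not overlap on DR, though in females the nearest were 603 and 612 CPM. This split, with 2 or 3 mice a group, was made after the values were seen and was not tested.

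Female minus male, the log2 difference was 0.56 ± 0.09 for Ly6a (SE, adjusted p = 0.000747, edgeR), 0.51 ± 0.09 for Clec3b (SE, adjusted p = 0.00446, edgeR) and 0.39 ± 0.09 for Col14a1 (SE, adjusted p = 0.0273, edgeR). That made 3 of 10 markers, beside 0.931% of all genes, with a median of 0.32 against -0.004 for all genes. Pi16 differed by 0.45 ± 0.11 (SE) and was not called by edgeR (adjusted p = 0.0720) but by DESeq2 (0.0129), and by edgeR without mouse 018 (0.00852) or 020 (0.0330). The calls of Ly6a and Clec3b held in all 18 fits with a mouse left out, and that of Col14a1 in 13, with the adjusted p at 0.0689 without mouse 005, 0.0559 without 010, 0.0576 without 021, 0.0532 without 022 and 0.0536 without 026. C3 and Il33 were also higher in females, 2 of 5 cytokine and complement genes, while 0 of 10 other fibroblast markers and 0 of 8 endothelial genes were called.

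At 6 weeks 0 of 10 markers were called for sex by edgeR and 0 by DESeq2, beside 0.0648% of all genes by edgeR. Cd248 had the lowest p of the markers. Ly6a differed by -0.04 ± 0.11 (SE) over 10 mice. Whether the sex difference changed between the ages was not tested. The counts per group (1 to 2 females at 22 weeks) limit what these values show.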

How the data were processed

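RNA of the aortic arch was analysed for 10 adventitial fibroblast markers in 28 mice of 6 groups. The authors moved unique molecular identifiers to the reads with UMI-tools 1.1.2, trimmed with fastp, aligned with STAR 2.7.10a to mm39 with Ensembl annotation, removed duplicates and counted reads over whole gene bodies with HTSeq 2.0.2, and they deposited raw counts per gene and sample. The kit was directional, and the strand setting of the counting is not given in the sources used here, so reads of the 7 markers that overlap another gene could include some of that gene. Ly6a lies in a family of similar genes, and how reads were shared among them was not measured. The 5 lines of unassigned reads were kept out, and made up 12.6% to 18.7% of the reads in the 28 samples.

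A gene entered the test if over 10 of the 28 samples had over 10 counts of it. The test was that of edgeR 4.0.16 in R 4.3.3 (TMM factors, robust quasi-likelihood F test) with terms for group and sex, fitted to the 18 AL samples and separately to the 18 samples at 22 weeks. DEGs needed an adjusted p (Benjamini-Hochberg, all tested genes) up to 0.05 and a 1.2-fold change or more, and interactions had no fold limit. CPM are counts divided by the TMM-scaled total of the library. Positions and exon lengths came from GENCODE vM39 (GRCm39), a later release than the authors used, and a symbol was found for 56017 of 56748 genes. The markers lie on GRCm39 at chromosome 5, 75311994 to 75358876 (Pdgfra, ENSMUSG00000029231), chromosome 17, 29536654 to 29549567 (Pi16, ENSMUSG00000024011), chromosome 1, 164624187 to 164654544 (Dpt, ENSMUSG00000026574), chromosome 9, 122979925 to 122987055 (Clec3b, ENSMUSG00000025784), chromosome 19, 5118106 to 5120710 (Cd248, ENSMUSG00000056481), chromosome 15, 55171140 to 55384199 (Col14a1, ENSMUSG00000022371) and 74863840 to 74869880 (Ly6a, ENSMUSG00000075602), chromosome 14, 65903844 to 66002275 (Scara5, ENSMUSG00000022032), chromosome 2, 62159798 to 62242576 (Dpp4, ENSMUSG00000035000) and chromosome 1, 194621029 to 194647172 (Cd34, ENSMUSG00000016494).

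Named are the 10 markers, Ercc1, the 8 genes most like the markers' mean, and of each list up to 4 called genes per direction with the smallest p. Between genotypes at 22 weeks on AL, 0 of 4 mesothelium, 0 of 7 fat, 1 of 5 Schwann cell and 1 of 4 pericyte genes were called. So were 1 of 1 lymphocyte genes tested (Ptprc) and 1 of 5 heart muscle genes, beside 12.0% of all genes. Between genotypes on DR, 1 of 1 lymphocyte and 1 of 5 heart muscle genes were called, beside 13.0% of all genes. For DR in WT mice 1 of 7 fat genes was called, beside 1.30% of all genes. No other comparison called a gene of these lists. Some genes of these lists are not reported here by name. The markers and lists were chosen with earlier results of these data known. Alternatives were DESeq2 1.42.0, RLE factors, no filter, mouse 003 added, no sex term, other samples in the fit, thinning to 921167 counts and each mouse left out, and, chosen after seeing the data, the earlier dispersion method of edgeR and the sex comparison. The procedure was tested on simulated data. Each sample is 1 mouse with 1 library, so the tests weigh group differences against the variation between mice. That between libraries cannot be told apart from it.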

Additional observations from a re-analysis of the deposited data

Results flagged for a closer look

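In the 6-week WT group, Dpp4 was at 27.1 CPM in mouse 011 and at most at 10.2 CPM in the other 4 mice, a sample far from the rest of its group. It was the only such value among 60 groups of a marker tested in this way, a lower rate than the 1 in 20 or so that chance gives. The value rests on 25 counts. The same library had the fewest counts of its group (955589), the highest Ly6a value of its group and an Ercc1 level that did not settle its genotype label.

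The change of Col14a1 with age differed between the genotypes by -0.73 on the log2 scale (interaction term, adjusted p = 0.0267, edgeR), since it fell by 0.87 in Ercc1Δ/− mice and had a log2 fold change of -0.14 in WT mice. All 5 young Ercc1Δ/− mice were above all 4 old ones.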

How the results depend on the processing

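No paired analysis was possible because each mouse gave 1 sample and sample numbers are unique. Of 16 calls of a marker in a comparison, 6 were kept under every alternative fit and with every mouse left out, namely Ly6a and Col14a1 between genotypes at 22 weeks on AL, Pi16 and Col14a1 with age in Ercc1Δ/− mice, and Ly6a and Cd34 between genotypes on DR. None of the called changes reversed. Over all genes, DESeq2 called 378 against 213 by edgeR for the genotype at 6 weeks, 106 against 27 for age in WT mice, 197 against 97 and 43 against 13 for the interactions with age and diet, 348 against 220 for DR in Ercc1Δ/− mice and 321 against 115 for sex. For DR in WT mice (160 by edgeR) 310 were called without the filter, 103 with mouse 003, 48 without the sex term, 66 with all 6 groups and 59 at equal depth, and for DR in Ercc1Δ/− mice 99 with mouse 003 and 94 with only the compared groups. For age in WT mice the other counts ran from 11 (equal depth) to 71 (no filter), and for the interaction with diet from 1 (equal depth) to 41 (no filter). At equal depth 753 against 1484 were called for the genotype at 22 weeks on AL, 1001 against 1608 on DR, 351 against 574 for age in Ercc1Δ/− mice and 49 against 97 for the interaction with age, and 124 against 213 at 6 weeks with only the compared groups. With mouse 003 added, 0 markers were called at 6 weeks. For DR in WT mice 0 were called without the sex term and 1 with all 6 groups in the fit, and in Ercc1Δ/− mice 0 with all 6 groups. Between genotypes on DR 2 were called without the filter, without the sex term or with all 6 groups, and for the genotype by age interaction 2 by DESeq2. The causes were not tested. With each mouse left out, the number of markers called ran from 0 to 1 at 6 weeks, 2 to 4 at 22 weeks on AL, 1 to 2 for DR in WT, 0 to 1 for DR in Ercc1Δ/− mice, 2 to 4 between genotypes on DR, 0 to 1 for the interaction with age and 2 to 5 for sex at 22 weeks. The median log2 fold change of the markers ran from -0.05 to 0.20 between genotypes at 22 weeks on AL (0.20 without mouse 018) and from -0.40 to -0.22 for DR in WT mice (-0.22 without mouse 020). The RLE factors and the earlier dispersion method of edgeR left the number of markers called in each comparison as it was. Depth limits Dpp4 most, with 5 to 104 counts per sample, and thinning to equal depth ended the calls of Cd34 between genotypes at 22 weeks on AL, of Ly6a with age and of Pi16 on DR.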
